A study of Rattus norvegicus with 28 samples.

Results

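The genes described here encode the ligands of the insulin-like growth factor (IGF) system (Igf1, Igf2), their receptors (Igf1r, Igf2r) and 6 binding proteins (Igfbp1, Igfbp2, Igfbp3, Igfbp4, Igfbp5, Igfbp6), followed in rat spinal cord after contusion and after cell transplantation. Their 10 gene names were matched to 16 probes, printed on 43 spots of each array, out of 35469 features measured. The set was selected on measured values: it was chosen because Igf2 was higher 2 weeks than 1 week after injury and Igfbp6 was higher at 8 than at 4 weeks. Those steps are therefore given without a test, as is every value of Igf2 in a comparison that holds the 1-week or 2-week group and every value of Igfbp6 in a comparison that holds the 4-week or 8-week group.

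RNA from adult female rats was hybridised to 28 single-dye arrays, 4 animals in each of 7 groups. T0 was the control group, called sham in the labels, while T1, T2, T4 and T8 were rats killed 1, 2, 4 and 8 weeks after a severe thoracic contusion of 250 kdyn. T1_NPC rats received neural progenitor cells (NPC) directly after the contusion and were killed at 1 week, and T2_NPC rats received them 1 week after the contusion and were killed at 2 weeks. The study reports that injured controls received an equal volume of medium without cells, so injury alone below means injury without transplanted cells. The transplanted NPC were cultured from the cords of adult rats that had themselves been injured, and all operated animals were given the immunosuppressant FK-506, from the day before transplantation in the case of the transplanted groups. The tissue was 1.5 cm of cord around the epicentre without dura mater (the labels of T2_NPC do not mention the dura and name a slightly shorter span of segments), so each value is an average over host cells of all kinds and any surviving transplanted cells, whose transcripts these rat probes cannot separate. In such bulk tissue, fewer cells of a type and less RNA per cell cannot be told apart.

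The scanner outputs and the authors' table of normalised values disagreed on the identity of 16 of the 28 arrays. Every column of the value table had exactly the rank order of 1 scanner output, and for those 16 arrays, which lay on 4 of the 7 slides, that output was deposited under another sample. The value table was used under its own labels, and the calls of the members against T0 and with transplantation were also computed for the 12 arrays without a conflict (2 of T0, 1 of T1, 2 of T2, 1 of T4, 2 of T8, none of T1_NPC and all 4 of T2_NPC). With the scanner outputs under the samples they were deposited with, no member was called in any of the 4 comparisons with T0. The number of members with an unadjusted p under 0.05 in limma was then 0, 1, 6 and 5 at T1, T2, T4 and T8, and the steps of Igf2 and Igfbp6 were 0.58 and 0.94 on the log2 scale. The share of all features called with that assignment is not given here, so these counts are not a result particular to the members. Every difference below that includes disputed arrays therefore depends on the sample names of the value table. Those computed on the 12 arrays without a conflict do not. The arrays were also read in 3 scan sessions: T0 and the 4 injured groups were split over the first and second, whereas both transplanted groups were read in the third, each on a slide of its own. All arrays of the first session were without a conflict and all arrays of the second were disputed. For comparisons with T0, the undisputed arrays and the first session are thus the same arrays, not separate checks. The array of T1_NPC replicate 2 stood apart, with a mean correlation of 0.971 to its own group against 0.980 to 0.989 for the other arrays.

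IGF-1 and IGF-2 are small secreted growth factors related to insulin. Both signal mainly through IGF-1R, a receptor tyrosine kinase that feeds the PI3K-AKT and RAS-MAPK cascades, whereas IGF-2R, the cation-independent mannose 6-phosphate receptor, takes up IGF-2 for degradation in lysosomes and sorts lysosomal enzymes. The binding proteins hold IGFs in the extracellular space, extend their lifetime and limit or deliver them to receptors, and some act on cells without IGF. In the nervous system, IGF-1 acts on neurons and on myelinating cells and is also made by activated microglia and macrophages, while IGF-2 in the adult is known from the meninges and choroid plexus.

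All 16 probes are 60 bases long and came with coordinates of the rat build rn4. Only the following probes of coding sequence are printed, because results below turn on them or because they show how far the array can separate family members: Igf1r, the only member called in the comparisons of transplantation with injury alone, Igfbp2 and Igfbp3, for the sizes of their differences from T0, and Igfbp6, one of the genes on which the set was selected. Capitals mark the longest run of bases that any 2 probes of different members had in common, 12 bases, found once among 111 pairs in the probes of Igfbp3 and Igfbp6.
Igf1r, chr1:122989150-122989209, plus strand: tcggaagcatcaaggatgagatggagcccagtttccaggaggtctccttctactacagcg
Igfbp2, chr9:71967157-71967216, plus strand: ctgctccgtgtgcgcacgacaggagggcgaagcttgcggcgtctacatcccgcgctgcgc
Igfbp3, chr14:87961611-87962505, minus strand, spanning an intron: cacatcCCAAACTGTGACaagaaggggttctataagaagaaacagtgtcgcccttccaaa
Igfbp6, chr7:140888422-140888481, plus strand: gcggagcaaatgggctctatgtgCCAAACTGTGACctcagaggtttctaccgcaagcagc

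The shared bases lie in the conserved, cysteine-rich part of the family. The next longest run shared by any pair was 9 bases. Nearly all member probes were well above background on all 4 arrays of every group, the exceptions being 1 of the 4 Igf1 probes (on 3 arrays of T0 and 3 of T1_NPC), 1 of the 2 Igfbp4 probes (on 2 arrays of T0 and 3 of T1_NPC) and 1 of the 2 Igfbp5 probes (on 3 arrays of T1_NPC). No spot was saturated on any array.

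Values are log2 normalised signals, differences are log2 differences between group means with a standard error (SE), and a difference was called at an adjusted p under 0.05 in limma, fitted over all 28 arrays and adjusted over all 35469 features. Among the 8 members that could be tested at all 4 time points, Igf1, Igf2r, Igfbp2, Igfbp3 and Igfbp4 were higher than T0 at each of them, Igfbp5 was higher at 3, and Igf1r and Igfbp1 were called at none. By time point, 6 of 9 tested members were higher at T1, 7 of 9 at T2, 6 of 9 at T4 and 7 of 9 at T8, and none was lower. In limma 7, 7, 8 and 7 of them had an unadjusted p under 0.05. With scan session as a block, Igfbp1 was called lower at all 4 times, as described with that gene, and 7, 7, 6 and 7 members were higher. Injury moved a large part of the array: over all features, 19.2%, 17.8%, 17.5% and 18.3% were called higher at 1, 2, 4 and 8 weeks, while 25.2%, 22.4%, 21.1% and 21.7% were called lower. The median difference of the tested members was 1.60, 2.20, 1.71 and 2.37 at T1, T2, T4 and T8, against -0.10, -0.06, -0.06 and -0.05 over all features. The 4 comparisons share the T0 arrays and so are not independent of each other. With the undisputed arrays alone, 6, 6, 6 and 8 of 9 members were called, the last including Igfbp1 as lower.

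**Figure D1:**
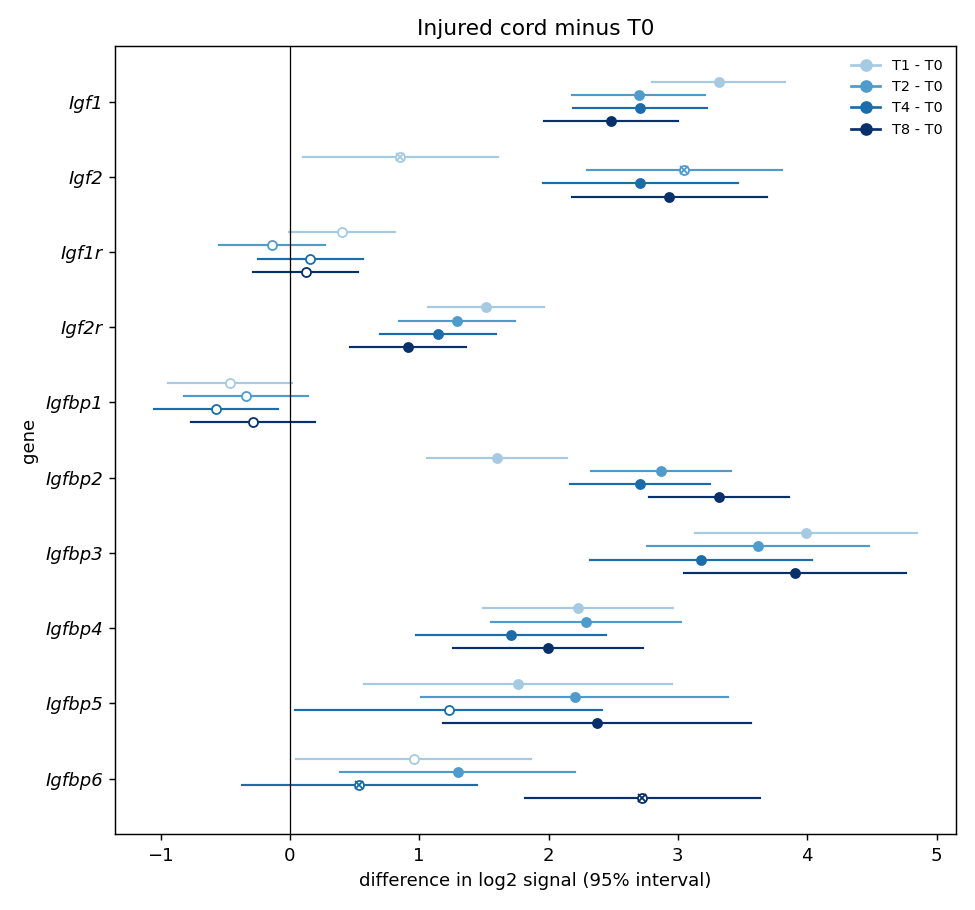
Log2 difference from T0 of each member at T1, T2, T4 and T8 (x axis, log2 units), with 95% intervals as bars. Filled points were called in limma, open points were tested and not called, and crossed points belong to comparisons used in choosing the genes and were not tested. All called points lie to the right of 0, and those of Igf1r and Igfbp1 are open at every time.

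Igf1 was higher than in control cord at every time after injury. The mean of its 4 probes was 7.68, 7.58, 7.58 and 7.77 in the 4 T0 arrays and 11.01, 11.16, 10.43 and 11.27 in T1. In T2 it was 10.24, 10.39, 10.36 and 10.40, in T4 10.50, 10.44, 10.17 and 10.34, and in T8 10.04, 10.20, 10.23 and 10.08. No injured array came near the T0 arrays, and the T1 arrays all lay above those of T2. The difference from T0 was 3.31 at T1 (SE 0.25, 9.95-fold, limma adjusted p = 2.04e-10), 2.70 at T2 (6.48-fold, 9.12e-09), 2.71 at T4 (6.54-fold, 1.08e-08) and 2.48 at T8 (5.59-fold, 3.54e-08). Within the first and the second scan session the T1 difference was 3.37 and 3.28, and the T8 difference 2.51 and 2.46. The difference between T2 and T1 was -0.62, given as a description because the set was chosen on that contrast.

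The 4 Igf1 probes disagreed in size. Probes A_44_P126021 and A_44_P366723 differed from T0 by 5.02 and 4.68 at T1 and by 3.91 and 3.88 at T8, that is 32.5-fold and 25.6-fold at T1. Probe A_44_P421499 differed by 2.69 at T1 and 1.96 at T8. Probe A_44_P421502, printed on 10 spots, was called only at T1, by 0.86 (limma adjusted p = 0.000686), and differed by 0.27, 0.33 and 0.18 at T2, T4 and T8 (adjusted p = 0.291, 0.185 and 0.493). The last 2 probes carry the same older cDNA accession and are neighbours, at chr7:24533810-24533869 and chr7:24533750-24533809, inside the interval chr7:24531970-24537063 that the first probe spans across an intron. The averaged Igf1 value therefore understates what its strongest probes measured.

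**Figure D2:**
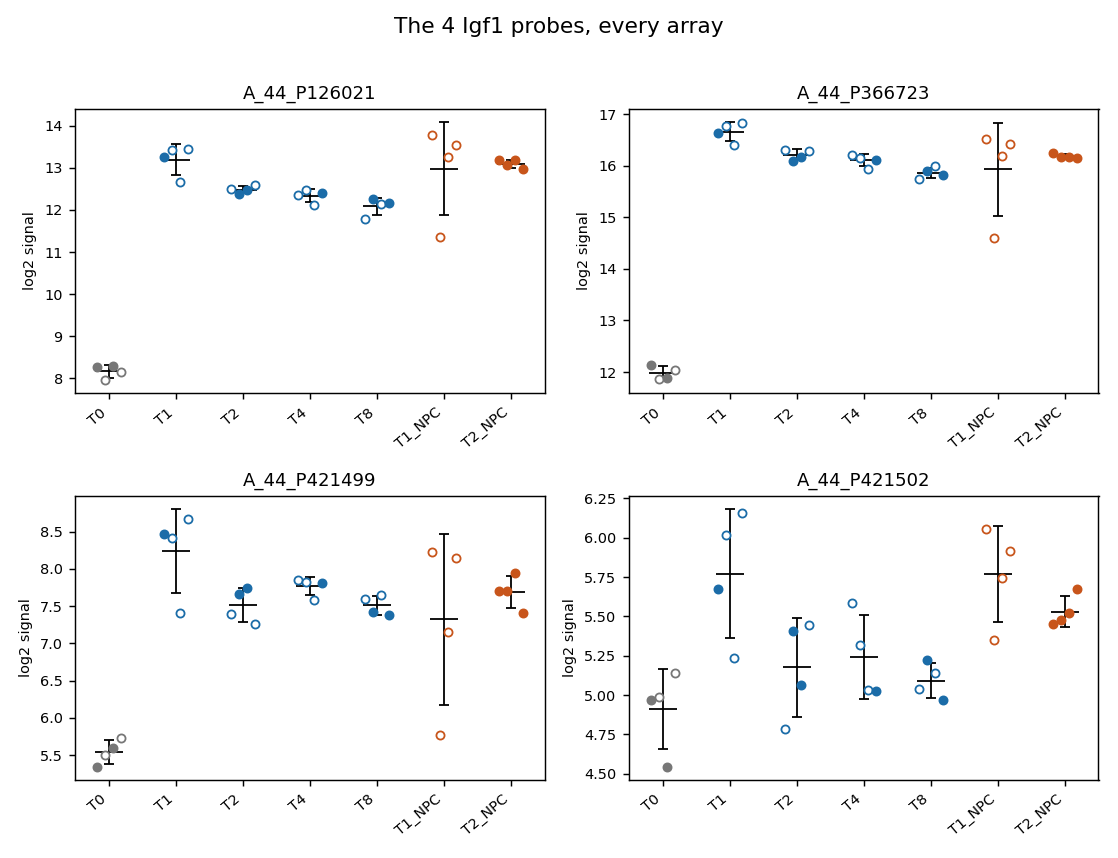
Log2 normalised signal of each of the 4 Igf1 probes (one panel per probe) in each array of the 7 groups, with the mean and SD of 4 arrays as bars. Filled points are arrays without a conflict over their sample and open points are the disputed ones. The step from T0 to T1 is 5.02 and 4.68 for the 2 strongest probes and 0.86 for A_44_P421502.

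Igf2 followed another course. Its 1 probe gave 13.42, 13.27, 13.27 and 13.21 in T0 and 13.82, 14.25, 13.76 and 14.75 in T1. It gave 16.46, 16.29, 16.32 and 16.30 in T2, 15.46, 16.25, 15.94 and 16.35 in T4, and 15.82, 16.46, 16.66 and 15.95 in T8. T1 lay slightly above T0, while all 12 arrays of the later groups lay above every T1 array. At T4 the difference from T0 was 2.71 (SE 0.36, 6.54-fold, limma adjusted p = 2.71e-06) and at T8 it was 2.93 (7.64-fold, 7.29e-07). The values on which the set was chosen were a difference of 0.85 from T0 at T1, 3.05 at T2 and 2.20 between T2 and T1. Within the scan sessions the step between T1 and T2 was 2.49 in the first, where all arrays were undisputed but T1 had 1, and 2.12 in the second.

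Igf2 lies next to the insulin gene Ins2 on chromosome 1, 29.5 kb away in the probe coordinates, and 83.6 kb from H19, a long non-coding RNA that is imprinted in the opposite sense and shares enhancers with Igf2. H19 had its highest mean at T1 rather than T2, with 3.82 in T0, 11.51 and 9.87 at 1 and 2 weeks, and 7.16 and 6.38 at 4 and 8 weeks. It was called higher at all 4 times, but its probe was well above background on only 2 of the 4 T0 arrays, so no size is given. With normexp background correction the T8 call was lost (0.63, limma adjusted p = 0.216), and with the undisputed arrays alone those at T4 and T8 were lost (0.061 and 0.0684). Ins2 was called higher at T2, T4 and T8, by 1.17 each time. H19 was thus lower at each later time, by group mean, over the weeks in which Igf2 was high.

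**Figure D3:**
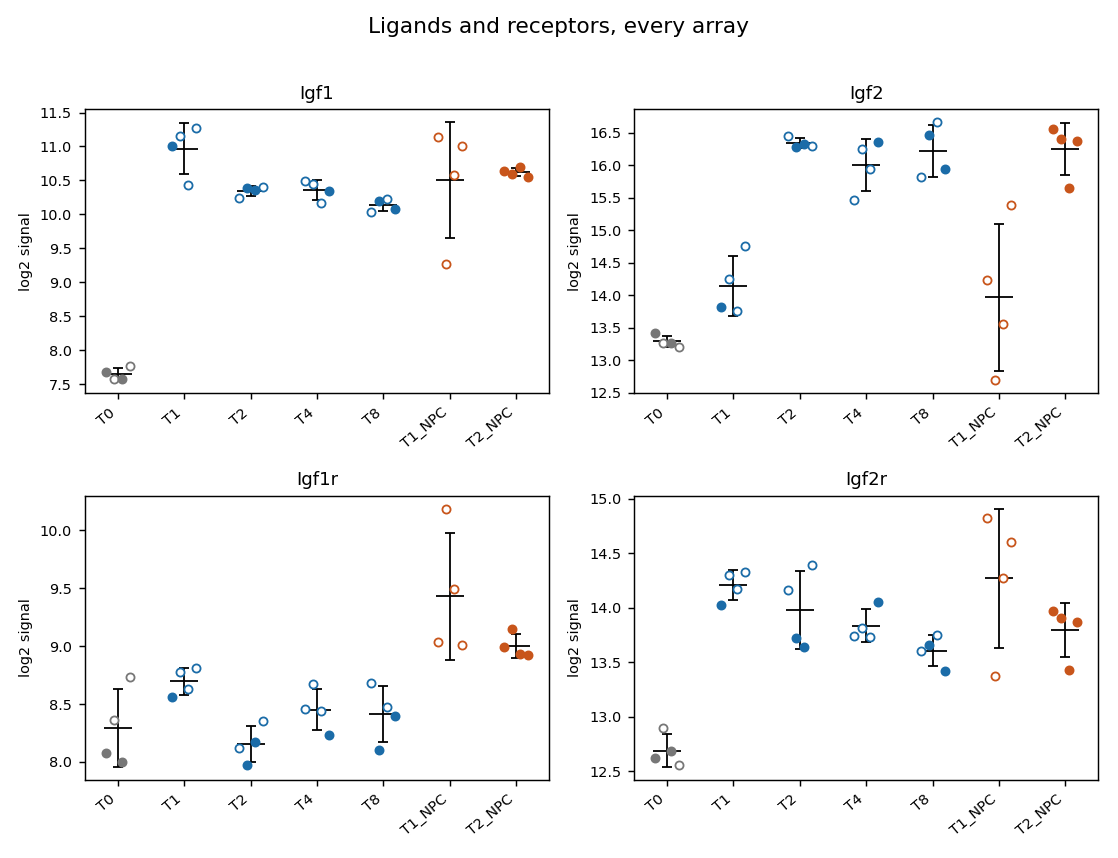
Log2 normalised signal of Igf1 (mean of 4 probes), Igf2, Igf1r and Igf2r in each array of T0 (grey), the injured groups (blue) and the transplanted groups (orange), with the mean and SD of 4 arrays. Filled points are arrays without a conflict over their sample. Igf1 is already high at T1, Igf2 is at 13.76 to 14.75 in T1 and at 15.46 to 16.66 in T2, T4 and T8, and Igf1r is highest in the transplanted groups.

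Marker genes of several cell types moved with these ligands. The summed signal of 8 microglia and macrophage markers ran from 28064.5 to 32936.6 in T0, from 198044 to 228746 in T1, and from 145727 to 170190 in T8, and all 8 were called higher at each time (1 of them, Csf1r, was well above background on only 1 of the 28 arrays). The sum of 14 markers of fibroblasts and meninges ran from 90580.5 to 121839 in T0 and from 192399 to 287671 in T1. At 2, 4 and 8 weeks its ranges were 230327 to 303695, 191262 to 338211 and 341616 to 413823. Of its genes, 12, 12, 12 and 14 were called higher at the 4 times, and 1 was called lower at T1. The sum of 6 Schwann cell markers rose from 12427.2 to 14424.8 in T0 to 54266.7 to 75413.1 in T8, with all 6 called at each time, and 5 neuronal markers were all lower at each time. Over all features, 17.5% to 19.2% were called higher and 21.1% to 25.2% lower at the 4 times. The part of the marker changes in the IGF results was not tested.

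The receptors differed from each other. Igf2r was 12.62, 12.90, 12.68 and 12.55 in T0 and 14.02, 14.30, 14.17 and 14.33 in T1, after which it was 14.16, 13.72, 13.64 and 14.39 in T2, 13.74, 13.81, 13.73 and 14.06 in T4, and 13.60, 13.65, 13.75 and 13.41 in T8. No injured array overlapped T0. The difference from T0 was 1.52 at T1 (SE 0.22, 2.86-fold, limma adjusted p = 4.13e-06), 1.29 at T2 (2.44-fold, 3.64e-05), 1.15 at T4 (2.21-fold, 0.000165) and 0.92 at T8 (1.89-fold, 0.0014). Its means were in descending order with time, and neither T1 and T2 (0.23 apart, pooled SD 0.27) nor T2 and T4 (0.14 apart, pooled SD 0.27) differed by more than their pooled spread.

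Igf1r, the signalling receptor, was not called after injury alone. Its probe gave 8.08, 8.36, 8.00 and 8.74 in T0, 8.56, 8.78, 8.63 and 8.81 in T1, and 8.12, 7.98, 8.17 and 8.36 in T2. In T4 it gave 8.46, 8.67, 8.44 and 8.23, and in T8 8.69, 8.10, 8.47 and 8.40. The groups overlapped with T0 at every time, with differences of 0.40 at T1 (95% interval -0.01 to 0.81, limma adjusted p = 0.105), -0.14 at T2 (-0.55 to 0.27, 0.635), 0.16 at T4 (-0.25 to 0.57, 0.58) and 0.12 at T8 (-0.29 to 0.53, 0.684). The T1 difference was called in several other settings: 0.53 with the undisputed arrays alone, of which T1 has 1 (limma adjusted p = 0.049), 0.33 with slide as a fixed block (0.0137), 0.40 with the time-course arrays alone (0.045), 0.55 without T0 replicate 4 (0.0303) and 0.40 without T1_NPC replicate 2 (0.0339).

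Among the binding proteins, Igfbp3, the main carrier of IGFs in serum, differed most from T0. The mean of its 2 probes was 10.15, 9.71, 10.76 and 10.43 in T0 and 14.18, 14.68, 14.45 and 13.71 in T1. It was 14.68, 13.44, 13.25 and 14.17 in T2, 13.23, 13.00, 13.31 and 14.22 in T4, and 13.56, 14.30, 14.16 and 14.67 in T8. All injured arrays lay more than 2 log2 units above every T0 array. The differences were 3.99 at T1 (SE 0.42, 15.9-fold, limma adjusted p = 4.35e-08), 3.62 at T2 (12.3-fold, 2.56e-07), 3.18 at T4 (9.04-fold, 1.95e-06) and 3.91 at T8 (15.0-fold, 8.29e-08), and its 2 probes gave 3.93 and 4.05 at T1. Within the scan sessions they ran from 2.88 to 4.03 in the first and from 3.11 to 4.36 in the second.

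Igfbp2, a binding protein prominent in the central nervous system, was higher at T1 and higher still later. It was 9.77, 10.23, 9.67 and 10.47 in T0, 11.28, 11.96, 11.75 and 11.56 in T1, and 13.60, 12.28, 12.72 and 13.02 in T2. In T4 it was 12.71, 13.13, 12.31 and 12.83, and in T8 13.17, 13.06, 13.98 and 13.20. Every T2, T4 and T8 array lay above every T1 array. The difference from T0 was 1.60 at T1 (SE 0.26, 3.04-fold, limma adjusted p = 2.36e-05), 2.87 at T2 (7.29-fold, 7.15e-09), 2.71 at T4 (6.53-fold, 2.33e-08) and 3.32 at T8 (9.97-fold, 7.37e-10). Its difference between T2 and T1, described without a test, was 1.27. Its gene lies 33.1 kb from that of Igfbp5 on chromosome 9 in the probe coordinates.

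Igfbp5, which binds extracellular matrix, had the widest scatter of the called members. It was 7.86, 7.36, 7.04 and 7.39 in T0, 8.35, 10.39, 9.01 and 8.95 in T1, and 9.70, 9.19, 9.15 and 10.41 in T2. The T4 arrays gave 9.0, 8.86, 7.94 and 8.75 and those of T8 gave 8.91, 10.37, 10.12 and 9.73. All injured arrays were above all T0 arrays. The differences were 1.76 at T1 (SE 0.57, 3.39-fold, limma adjusted p = 0.0149), 2.20 at T2 (4.60-fold, 0.00328) and 2.37 at T8 (5.18-fold, 0.00173), while the T4 difference of 1.23 (95% interval 0.04 to 2.42) was not called (0.0979). It was called with slide as a fixed block (1.22, 0.00725) and, at the same 1.23, with the time-course arrays alone (0.0224), T4 and T0 alone (0.00736) or T1_NPC replicate 2 left out (0.0346). The T1 call rested on 1 array: without T1 replicate 2, adjusted p was 0.0745, and with the undisputed arrays alone the difference was 0.90 (0.319).

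Igfbp4, an inhibitor of IGF action that the protease pappalysin cleaves, was 6.87, 6.53, 6.85 and 6.06 in T0 and 8.70, 9.33, 8.64 and 8.55 in T1. It was 9.0, 8.41, 9.03 and 9.04 in T2, 8.34, 8.09, 7.90 and 8.80 in T4, and 8.50, 8.59, 8.45 and 8.76 in T8. Here too the injured arrays did not overlap T0. The differences were 2.23, 2.29, 1.71 and 2.00 (SE 0.36, 4.68-, 4.90-, 3.27- and 3.99-fold, limma adjusted p = 1.73e-05, 1.36e-05, 0.000451 and 7.31e-05). The probe that was well above background on only 2 T0 arrays gave 1.96 at T1 and the other gave 2.49.

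Igfbp6, which prefers IGF-2 over IGF-1, had its high values at T8. It was 10.77, 9.51, 9.94 and 9.62 in T0, 11.00, 11.60, 11.37 and 9.70 in T1, and 11.41, 11.06, 11.50 and 11.07 in T2. The T4 arrays gave 11.02, 10.62, 9.14 and 11.22 and those of T8 gave 12.36, 12.75, 12.37 and 13.26. The T8 arrays lay above every other array of the time course, and T4 overlapped T0. The difference from T0 was 0.96 at T1 (SE 0.44, limma adjusted p = 0.0821) and 1.30 at T2 (2.46-fold, 0.0204). The T1 difference was called with session as a block (1.08, limma adjusted p = 0.0394) and without T0 replicate 1 (1.23, 0.0369), T1 replicate 4 (1.36, 0.0138) or T4 replicate 3 (0.96, 0.0465). The T2 call was lost without T0 replicate 2 (0.0629) or T0 replicate 4 (0.0553) and with the undisputed arrays (0.92, 0.254). The values that chose the gene were 0.54 at T4, 2.72 at T8 and 2.19 between T8 and T4, with 1.78 and 2.11 within the 2 scan sessions. The summed fibroblast and meningeal markers were likewise highest in T8, and Igfbp6 is expressed by such cells; their part in the step was not tested.

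Igfbp1, mainly a product of the liver, was not called against T0, but several other settings called it lower. It was 8.29, 7.67, 8.56 and 7.66 in T0 and lay between 7.26 and 8.16 in all 16 arrays of T1, T2, T4 and T8. The groups overlapped at every time. Its differences were -0.46, -0.34, -0.57 and -0.29 (SE 0.23, limma adjusted p = 0.115, 0.273, 0.0537 and 0.361), and the 95% interval at T4 was -1.05 to -0.09. Its values also split by scan session without overlap, at 7.91 to 8.56 in the first and 7.26 to 7.67 in the second, and within them the differences from T0 ran from -0.52 to -0.30 and from -0.37 to -0.15. With session as a fixed block, Igfbp1 was called lower at T1, T2, T4 and T8, with differences of -0.30, -0.34, -0.41 and -0.29 (SE 0.11, limma adjusted p = 0.0262, 0.0116, 0.00339 and 0.03), and it was also called lower at all 4 times with slide as a fixed block. At T4 it was also called lower with normexp (-0.42, 0.031), without dim features (-0.57, 0.0407), with slide as a random block (-0.49, 0.0393) and with trend and robust moderation (-0.57, 0.0495). Leaving out T0 replicate 2 or 4, T1 replicate 1, T2 replicate 3 or 4, or T4 replicate 4 did the same, with differences of -0.72 to -0.57 and adjusted p of 0.0222 to 0.0466, and without T1 replicate 1 it was called lower at T1 as well (-0.61, 0.0449). With the undisputed arrays alone it was called lower at T8, by 0.43 on the log2 scale (-0.43, 0.0494). Its gene lies 5.70 kb from that of Igfbp3 on chromosome 14 in the probe coordinates, and the 2 neighbours had differences of opposite sign.

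**Figure D4:**
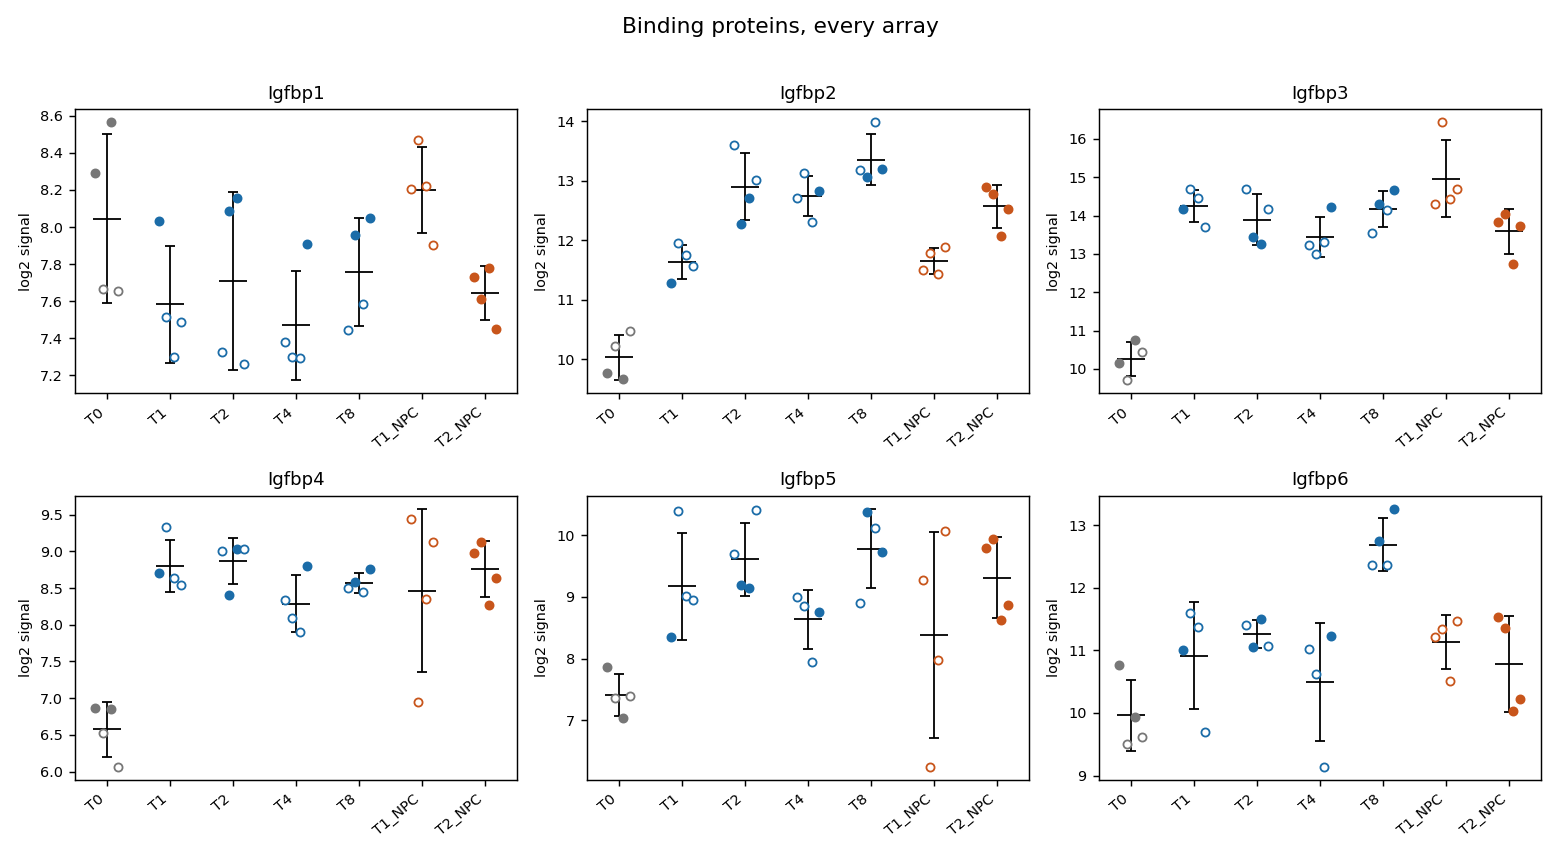
Log2 normalised signal of Igfbp1 to Igfbp6 in each array of T0 (grey), the injured groups (blue) and the transplanted groups (orange), with the mean and SD of 4 arrays. Filled points are arrays without a conflict over their sample. Igfbp3 is at 9.71 to 10.76 in T0 and at 13.00 or more in every injured group, Igfbp2 is highest from T2 on, and Igfbp6 is at 12.36 to 13.26 in T8.

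Between T2 and T4, none of the 8 members that could be tested was called and none had an unadjusted p under 0.05 in limma. Their median difference was -0.20. This comparison moved few features of any kind, 0.0761% of all tested. The widest differences were those of Igfbp5 (-0.97, 95% interval -2.16 to 0.21, limma adjusted p = 0.655) and Igfbp4 (-0.59, -1.32 to 0.15, 0.669), and both intervals hold shifts of more than 1 log2 unit.

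Other genes of the pathway were taken from lists of carriers and proteases, insulin and its receptors, receptor signalling, the growth hormone axis, Igf2 mRNA-binding proteins and imprinted growth genes. Of 45 measured genes, 13, 13, 14 and 14 were called higher at the 4 times and 5, 8, 6 and 4 lower. Over all features, 19.2%, 17.8%, 17.5% and 18.3% were called higher at these times. Called lower were 25.2%, 22.4%, 21.1% and 21.7%. The same shares apply to the counts of the single lists that follow. The median difference below is that of the 45 genes. Their median difference was 0.20, -0.05, 0.02 and -0.04.

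Of 23 genes of receptor signalling, 9, 6, 7 and 8 were higher at T1, T2, T4 and T8, and 2, 3, 3 and 3 were lower. Eif4ebp1, a translation repressor that mTOR inactivates, was higher by 2.33, 2.18, 1.89 and 2.00, and Shc1, an adaptor between the receptor and RAS, by 2.37, 1.98, 1.86 and 1.89. Akt2, a kinase downstream of PI3K, was higher by 1.49, 0.98, 1.45 and 1.39, of which the T2 call was lost with normexp (0.50, limma adjusted p = 0.0532), with T2 and T0 alone (0.0885) and without T0 replicate 1 (0.0983), T0 replicate 3 (0.0837) or T2 replicate 4 (0.0982). Among the adaptors that fell, picked after their values were seen, Irs2 was lower by 0.70 to 0.83 on the log2 scale (-0.70, -0.83, -0.82 and -0.73) and Grb14, which restrains the insulin receptor, differed by -1.12, -0.82, -0.67 and -0.92. Receptor adaptors thus moved both ways.

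Of 7 measured carriers, proteases and stabilisers, 1 was higher at each time, with 1, 3, 2 and 1 lower. The higher one was Stc2, stanniocalcin-2, an inhibitor of pappalysin. It was not well above background on any T0 array, so its change is a lower bound, at least 4.84-fold at T1, 2.56-fold at T2, 2.66-fold at T4 and 3.28-fold at T8. Its relative Stc1, named after its values were seen, was lower at T2, T4 and T8 (-0.61, -0.67 and -0.63). Pappa, the protease itself, had means of 8.27 in T0 and 8.51, 7.92, 7.83 and 7.99 in T1, T2, T4 and T8.

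In the growth hormone axis, 1 of 4 genes was higher at T1 and 3 at the later times. Stat5b, the transcription factor through which growth hormone induces Igf1 in liver, was higher by 1.31, 0.73, 0.94 and 0.78. Its T2 call was lost with T2 and T0 alone (limma adjusted p = 0.0652) and without T0 replicate 1 (0.103), T0 replicate 3 (0.0628) or T2 replicate 4 (0.101), and its T8 call without T0 replicate 1 (0.0718) or T8 replicate 1 (0.0523). Of 4 genes for insulin and its receptors, 1 was lower at T1 and 1, 2 and 1 were higher at T2, T4 and T8. Of 3 Igf2 mRNA-binding proteins, Igf2bp2 was higher at T1 and T2 (1.19 and 0.73), and none was called at T4 or T8. Igf2bp1 and Igf2bp3 were not well above background on any array, so no difference is given for them, although the probe of Igf2bp3 is among those counted as lower at T2. Of 4 imprinted growth genes, H19 was higher at each time and Dlk1 was lower at T1, T2 and T4 (-1.15, -1.05 and -1.07).

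Transplantation was compared with injury alone at the same time after injury. Igf1r was higher in both transplanted groups, and no other tested member was called in either comparison. Its probe, the one printed above, gave 9.04, 10.18, 9.49 and 9.01 in T1_NPC and 9.0, 9.15, 8.93 and 8.92 in T2_NPC, all above the 8.56 to 8.81 of T1 and the 7.98 to 8.36 of T2. The difference was 0.74 between T1_NPC and T1 (95% interval 0.33 to 1.14, 1.67-fold, limma adjusted p = 0.0171) and 0.84 between T2_NPC and T2 (0.44 to 1.25, 1.80-fold, 0.00895). The 2 differences did not differ from each other by test (0.11, -0.47 to 0.69, adjusted p = 0.925), which does not show them to be equal.

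Of 9 members tested, 1 was thus called higher at each time and none lower (2 and 1 had an unadjusted p under 0.05 in limma), where 5.52% of all features were called higher and 6.51% lower in T1_NPC and 4.67% and 4.91% in T2_NPC. Both transplanted groups were read in a scan session of their own, so session, slide and transplantation cannot be told apart in these comparisons. Without T1_NPC replicate 2, the array that stood apart, the T1_NPC difference of Igf1r was 0.49 and was not called (adjusted p = 0.0698). All T1_NPC arrays were disputed. With undisputed arrays, the T2_NPC difference of Igf1r was 0.93 (0.00291) and Igfbp1 was called lower (-0.48, 0.0313). The undisputed T2 arrays, replicates 2 and 3, were both read in the first scan session, and Igfbp1 was 8.09 and 8.16 in them. It was 7.33 and 7.26 in T2 replicates 1 and 4, read in the second. With all arrays the T2_NPC difference of Igfbp1 was -0.07 and was not called (limma adjusted p = 0.907).

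That array departed from its group in most members. T1_NPC replicate 2 lay below the other 3 arrays for Igf1 (9.27 against 10.58 to 11.14), Igf2 (12.70 against 13.55 to 15.39), Igf2r, Igfbp4 and Igfbp5. It lay above them for Igf1r (10.18 against 9.01 to 9.49), Igfbp1 and Igfbp3 (16.43 against 14.30 to 14.69), and among them for Igfbp2 and Igfbp6. Its microglia and macrophage sum, 134814, was the lowest of the group and its neuronal sum, 162999, the highest. The part of these values in the member results was not tested.

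Some marker sums did not overlap between transplanted and injured groups. Those of fibroblasts and meninges, Schwann cells, astrocytes, neurons and skeletal muscle overlapped in both comparisons. The summed signal of 3 red blood cell markers ran from 5319.48 to 23147.1 in T2_NPC and from 1848.13 to 4096.65 in T2, without overlap, and from 4058.79 to 9990.66 in T1_NPC and 3634.95 to 7135.84 in T1. The sum of 6 oligodendrocyte markers ran from 352565 to 385802 in T2_NPC and from 252775 to 314939 in T2, whereas it overlapped between T1_NPC and T1. The sum of 7 endothelial and pericyte markers ran from 27530.1 to 33981 in T1_NPC and from 23160.4 to 26033.5 in T1, without overlap, and overlapped between T2_NPC and T2. The microglia and macrophage sum ran from 174300 to 186585 in T2_NPC, just below the 186750 to 204316 of T2, and overlapped at 1 week. By single gene, 1 of 3 red blood cell and 2 of 6 oligodendrocyte markers were called higher in T2_NPC, where 4.67% of all features were. None of the 8 microglia and macrophage markers was called there. In T1_NPC, 1 of 7 endothelial and pericyte markers was called higher, where 5.52% of all features were. The part of these sums in the Igf1r difference was not tested.

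The ligands were not called. Igf1 differed by -0.47 between T1_NPC and T1 (95% interval -0.98 to 0.05, limma adjusted p = 0.236) and by 0.28 between T2_NPC and T2 (-0.24 to 0.79, 0.549), the T2_NPC values of 10.64, 10.60, 10.70 and 10.55 all being above those of T2. Igf2 gave 14.24, 12.70, 13.55 and 15.39 in T1_NPC and 16.56, 16.40, 15.66 and 16.38 in T2_NPC, -0.18 and -0.09 from the injured groups, without a test. Igfbp1 in T1_NPC was 8.20, 8.47, 8.22 and 7.90, a difference of 0.61 from T1 that was not called (adjusted p = 0.0855). Igfbp3 differed by 0.71 (-0.15 to 1.57, 0.283) in T1_NPC and by -0.30 (-1.16 to 0.56, 0.72) in T2_NPC. None of 9 members differed between the 2 transplantation effects, with 2 at an unadjusted p under 0.05 in limma and 0.307% of all features called.

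Of the 23 receptor signalling genes, 3 were higher and 1 lower in T1_NPC, where 5.52% and 6.51% of all features were, and 5 and 1 in T2_NPC, against 4.67% and 4.91%. Their median difference was 0.18 and 0.24. Named after their values were seen, Pik3cb, a catalytic subunit of PI3K, was higher by 0.70 and 0.54, while Pik3r1, a regulatory subunit of PI3K, was lower (-0.73 and -0.67). Of 7 carriers and proteases, Stc1 (0.57 and 0.48) and Htra1 (0.86 and 0.78), a secreted serine protease that cleaves binding proteins, were higher in both. The session limit above holds for each of these.

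**Figure D5:**
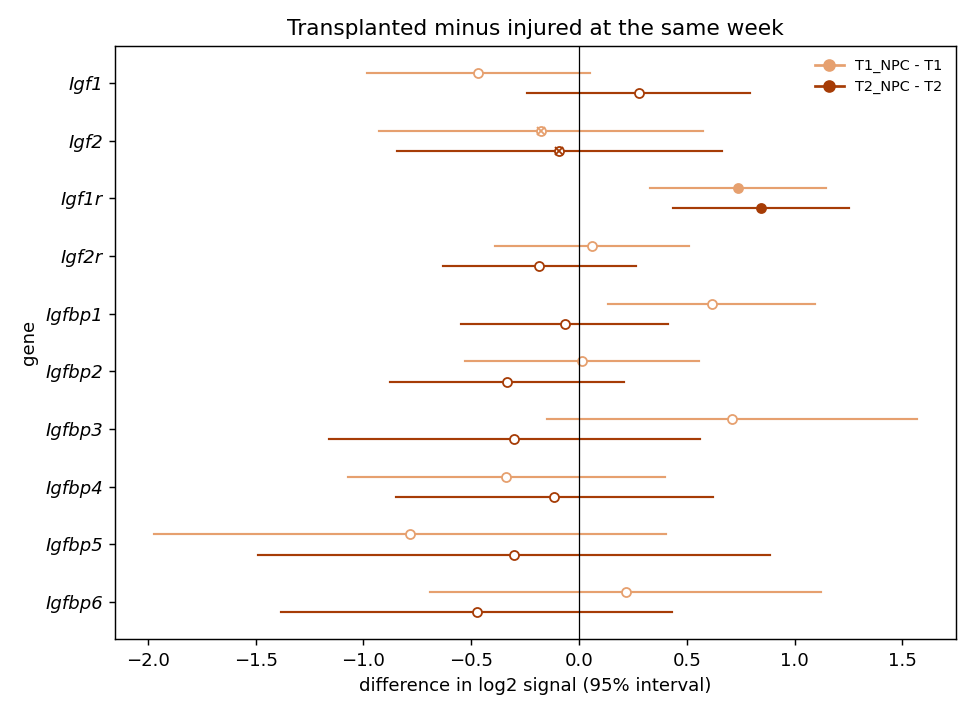
Log2 difference of each member (x axis, log2 units) for T1_NPC against T1 and T2_NPC against T2, with 95% intervals as bars. Filled points were called in limma, open points were tested and not called, and crossed points were not tested. Igf1r is filled in both comparisons, at 0.74 and 0.84, and Igf2 is crossed in both.

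The transplanted groups themselves were killed at 1 and 2 weeks and were read in 1 session. They were not in the steps on which the set was chosen, so they show Igf2 at both times in other animals. This comparison was added after the values were seen, so its p-values are not those of an independent test. In it the time after injury, the time of transplantation and the slide all differ. Igf2 was higher in T2_NPC than in T1_NPC by 2.28 (SE 0.36, 4.86-fold, limma adjusted p = 0.000299), with no overlap between the groups, and by 1.86 without T1_NPC replicate 2 (0.000925). Igfbp2 was higher by 0.92 (0.0272), a call lost without any 1 of T1_NPC replicates 1 and 3 and T2_NPC replicates 1, 2 and 4 (0.81 to 0.93, adjusted p 0.0507 to 0.0842). Igfbp3 was lower by 1.38 on the log2 scale (-1.38, 0.0356), which became -0.89 and was not called without T1_NPC replicate 2 (0.144). The Igfbp3 call was also lost without T2_NPC replicate 1 (0.0511), replicate 3 (0.118) or replicate 4 (0.0586). Of 10 members 2 were higher and 1 lower, where 10.2% of all features were called in either direction. With slide as a random block only the Igf2 call remained, and with a fit of these 2 groups alone none did, at adjusted p = 0.0699 for Igf2. All T1_NPC arrays were disputed. With the scanner outputs under the samples they were deposited with, no call of this comparison was kept (limma adjusted p = 0.821 for Igf2).

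Genes whose values went with those of the members were sought among 14575 features over the 24 arrays of injured cord. Those arrays include the transplanted groups and leave out T0, so a high r does not describe the change from T0. Prkag2, for example, had means of 10.35 in T0 and 9.56, 10.30, 10.28 and 10.38 in T1, T2, T4 and T8. These correlations are descriptions across arrays that share groups and sessions. The nearest to Igf1 were Fcer1g (r = 0.93), Btk (0.92), Ticam2 (0.92), Nlrc4 (0.91) and Apobec1 (0.91), of which Fcer1g encodes the signalling chain of Fc receptors on myeloid cells and Btk a kinase of B cells and myeloid cells. The nearest to Igf2 were Egfl8 (0.95), Prkag2 (0.93), Slc6a13 (0.92), Abca8 (0.92) and C9 (0.92), and Slc6a13, a GABA transporter of the leptomeninges, is also 1 of the 14 markers summed above. For Igfbp6 they included Col8a2 (0.86), a collagen chain, Foxp2 (0.85), Ptgis (0.84), the prostacyclin synthase, and Mfap5 (0.84), a microfibril protein. Without T1_NPC replicate 2 the values for the same genes ran from 0.86 to 0.90 for Igf1, 0.89 to 0.93 for Igf2 and 0.86 to 0.89 for Igfbp6.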

How the data were processed

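The authors deposited, for each of 28 Cy3 Agilent arrays, scanner output from Agilent Feature Extraction (version not given in the sources used here) with intensity values and flags, and a table of log2 values after quantile normalisation. The deposited log2 values were used, with intensities and flags taken from the scanner output that has the same rank order. Of 45018 spots, 1639 control spots were left out, as were outlier-flagged spots (0.307% over all arrays). The remaining spots gave 41012 probe means, and these gave 35469 features, each the mean of the probes under a gene name. Between 74.5% and 82.7% of spots per array were well above background. The number of arrays limits the precision.

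limma 3.58.1 (R 4.3.3) was fitted with 1 mean per group over 28 arrays, two-sided, with Benjamini-Hochberg adjustment over all features. The method was tested on simulated data. Members, gene lists and tests were chosen with earlier results of these data known. Named were all members, up to 3 genes per pathway list called at all 4 times in 1 direction with the largest mean change, and the 5 features most correlated with Igf1, Igf2 and Igfbp6, of which 1 is not reported here. Igfbp7, Pappa2, Peg3 and Mest had no probe by name. Markers of astrocytes, oligodendrocytes, endothelial cells and pericytes, skeletal muscle and red blood cells were also summed: the range in T0 and in T8 was 60333.4 to 71637.6 and 80188.6 to 101604 for astrocytes, 381009 to 477575 and 232324 to 277322 for oligodendrocytes, 25458.5 to 30438.9 and 24222.9 to 29823.9 for endothelial cells and pericytes, 4661.69 to 7701.54 and 1724.93 to 2031.09 for skeletal muscle, and 3372.96 to 3945.45 and 1872.69 to 3314.25 for red blood cells. Such sums are weighted to their brightest genes. At T8, 18.3% of all features were called higher and 21.7% lower. By gene, 1 of 6 astrocyte markers was then higher and 1 lower, and 5 of 6 oligodendrocyte markers were lower. Of 7 endothelial and pericyte markers 1 was higher, and of 3 red blood cell markers 1 was lower. Of 6 skeletal muscle markers 2 were higher and 1 lower, with a median difference of 0.29. Alternatives covered the source and sample of the values, normalisation, background correction, probe summary, dim features, session, slide and replicate blocks, arrays fitted, moderation and single arrays. No genome of the probes' build was used here.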

Additional observations from a re-analysis of the deposited data

Results flagged for a closer look

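In 3 of 70 sets of 4 arrays (10 members in 7 groups), 1 array lay far from the other 3 by Dixon's criterion, which flags about 1 in 20 such sets by chance. Igfbp1 was 7.91 in T4 replicate 4 and 7.30 to 7.38 in the other T4 arrays, and replicate 4 was the only T4 array of the first scan session. Igfbp2 was 13.98 in T8 replicate 3 and 13.06 to 13.20 in the others. Igfbp4 was 8.41 in T2 replicate 2 and 9.0 to 9.04 in the others.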

How the results depend on the processing

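All 31 called member differences kept their direction and their call with scanner outputs matched by rank and normalised by quantiles or to the 75th percentile. They also did so with normexp (run on median signals, since mean signals were not in the files used), with brightest probes and without dim features. Trend and robust moderation and keeping outlier spots lost none either. The same held for the 29, 26 and 26 of them that a session block, a slide block and a fit of the time course alone could give. With single probes all 31 were kept too, but there the probe with the lowest p stood for its gene, which favours keeping a call. By itself, Igf1 probe A_44_P421502 was not called at T2, T4 or T8. The session block added Igfbp1, as lower, at all 4 times and Igfbp6 at T1, and the slide block added Igfbp1 at all 4 times, Igf1r at T1 and Igfbp5 at T4. Calls gained in other settings stand beside Igf1r, Igfbp1, Igfbp5 and Igfbp6. Of 24 pathway calls, normexp, the undisputed arrays and the compared groups alone each lost 2. With the 75th percentile, 2 members were called in T1_NPC against T1 (Igfbp1 added, as higher) and the Igf2 step was 2.54. With scanner outputs under their deposited samples, 0 members were called in each of the 4 comparisons with T0, in T1_NPC against T1 and in T2_NPC against T2 (0, 1, 6, 5, 1 and 0 had an unadjusted p under 0.05 in limma). The share of all features called with that assignment is not given here. The steps were then 0.58 for Igf2 and 0.94 for Igfbp6, and 2 differences reversed, Igf1r in T1_NPC against T1 (-0.24) and Igfbp2 in T2_NPC against T1_NPC (-0.14). With undisputed arrays, 25 of 27 calls were kept and 2 members were called in T2_NPC against T2. With slide as a random block, the Igfbp2 and Igfbp3 calls in T2_NPC against T1_NPC were lost. A fit of the compared groups alone lost 4 calls and left 0 in T1_NPC against T1. The cause was not tested in these cases.

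The replicate numbers did not pair the samples: same-numbered arrays had a median correlation of deviations of 0.0022, with 19 of 84 pairs over 0.1. The replicate block gave 6, 7, 6 and 7 called members at T1, T2, T4 and T8 and changed no call.

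Leaving out each array in turn gave 5 to 7, 6 to 7, 6 to 7 and 7 called members at T1, T2, T4 and T8, 0 to 1 in T1_NPC, 1 in T2_NPC, an Igf2 step of 2.07 to 2.40 and an Igfbp6 step of 1.73 to 2.43. Of 868 member values, 13 lost their call and none reversed.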
